A study of Mus musculus with 63 samples.

Results

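The miR-29 family was followed across 4 sorted cell types of the mouse kidney, at baseline, during ureteric obstruction and after its reversal. Members were taken by name, as every locus annotated mmu-miR-29a-3p, mmu-miR-29a-5p, mmu-miR-29b-3p, mmu-miR-29c-3p or mmu-miR-29c-5p, written here without the species prefix. This gave 6 loci of the 2110 in the count table, and 5 mature names of 1966, because miR-29b-3p is encoded at 2 loci. Small RNA libraries came from male C57BL/6 mice aged 8 to 12 weeks. Groups were sham surgery, 2 days of unilateral ureteric obstruction (UUO-2), 7 days of obstruction (UUO-7), and 7 days of obstruction followed by 2 weeks of reversal (R-UUO), with 4 mice each. By the paper's methods more mice were operated, and the 4 sequenced were those nearest to the mean expression of the injury marker Havcr1. The spread within a group is therefore that of selected mice. From each digested kidney, endothelial cells (ECs, CD45-CD31+), macrophages (Macs, CD45+F4/80hi), proximal tubular cells (PT cells, binding the lectin LTL) and PDGFR-β+ stromal cells were isolated by FACS. A total of 63 libraries was available, 4 per group with the exception of PDGFR-β+ cells at UUO-7, which had 3. The authors had removed the other library of that group as an outlier in a principal component analysis. The same mouse gave the libraries of the different cell types within a condition, and different mice were used for different conditions. Cells were defined by their gate alone.

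miRNAs of the miR-29 family repress mRNAs of the extracellular matrix, among them those of fibrillar collagens, fibrillin and elastin. Each family member is cut from a hairpin, and its 3p arm is the abundant strand that enters the silencing complex, whereas the 5p arm is mostly degraded. In fibrosis of kidney, heart and liver the family is known as antifibrotic, and TGF-β signaling is known to lower it.

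The mature sequences are shown because they define what each count can and cannot tell apart. They are the RefSeq sequences of build GRCm38.p6, written 5′ to 3′ with the seed (bases 2 to 8) in capitals.
miR-29a-3p: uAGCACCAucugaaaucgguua
miR-29b-3p: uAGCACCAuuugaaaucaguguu
miR-29c-3p: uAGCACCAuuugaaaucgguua
miR-29a-5p: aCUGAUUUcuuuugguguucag
miR-29c-5p: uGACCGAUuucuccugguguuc
The 3 abundant arms share the seed AGCACCA, which is carried by exactly these 3 mature miRNAs among the RefSeq mouse entries, so they address the same seed matches. The 5p arms each have a seed of their own. Counted from the 5′ end, miR-29a-3p and miR-29c-3p differ by C10U alone. miR-29c-3p and miR-29b-3p differ by G18A, U21G and A22U over the 22 bases compared. A read of miR-29c-3p is therefore a single base from a read of miR-29a-3p, and how reads with a mismatch were placed is not given in the sources used here. The 2 loci of miR-29b-3p give the same 23 bases, so their reads cannot be told apart and the 2 counts are shares of 1 pool.

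The members lie in 2 clusters. On the minus strand of chromosome 6 (GRCm38), miR-29a-3p occupies chr6:31062673-31062694, miR-29a-5p chr6:31062711-31062732 and the chromosome 6 copy of miR-29b-3p chr6:31063025-31063047. The hairpins Mir29a and Mir29b-1 are separated by 275 bases there, and the mature sequences overlap no other gene of the GENCODE annotation. On the plus strand of chromosome 1, the other copy of miR-29b-3p occupies chr1:195037091-195037113, miR-29c-5p chr1:195037562-195037583 and miR-29c-3p chr1:195037600-195037621. The hairpins Mir29b-2 and Mir29c are 426 bases apart, inside an exon of the long noncoding RNA A330023F24Rik and opposite an exon of Cd46, a complement regulatory gene on the other strand. The hairpins of miR-29a and miR-29c, 1 from each cluster and the source of the most abundant members, are shown with the 3p arm in capitals.
Mir29a: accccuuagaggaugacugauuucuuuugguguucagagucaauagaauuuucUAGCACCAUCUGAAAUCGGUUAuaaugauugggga
Mir29c: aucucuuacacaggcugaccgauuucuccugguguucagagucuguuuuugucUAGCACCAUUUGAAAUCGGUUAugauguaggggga

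Library totals ranged from 616565 to 10819385 counts, with PT cells the shallowest (median 1043053.5) and ECs the deepest (median 7577134.5). miRNA markers of each gate were highest in that gate, for example the EC markers (miR-126a arms) at a median of 143336 CPM (counts scaled to a common library size) in ECs against 1105 in Macs, and erythroid markers did not pass 10.5 CPM in any library. The summed own markers fell with injury in 3 of the gates. In PDGFR-β+ cells the sum mixed markers that moved apart. The paper reports a loss of miR-143 and miR-145 there in late injury and an increase of miR-199 and miR-214, and arms of all of these are in the sum. From sham to UUO-7 the median marker sum went from 40249 to 18490.2 CPM in Macs, from 126711 to 41731 in PT cells and from 379810 to 145511 in PDGFR-β+ cells, against 148261 and 152489 in ECs. Over the same comparison, markers of other cells rose in some gates. The median sum of PDGFR-β+ markers in PT cells went from 2443 to 7948 CPM. In the same cells, the median sum of markers of other epithelium (miR-200a, miR-200b, miR-200c and miR-141) went from 3855 to 6660 CPM, without overlap. That of Mac markers went from 71.5 to 339 CPM in PDGFR-β+ cells and from 33.0 to 166 in ECs. The lymphocyte list held 1 miRNA, whose median in Macs went from 129 to 591 CPM. Its median was higher in ECs, at 3279 CPM in sham and 2423 at UUO-7. The median sum of EC markers in Macs went from 1385 to 843 CPM. Whether lymphocytes or ECs had a part in the rise in Macs was not tested. These shifts ran alongside the falls of miR-29 described next, and their part in them was not tested. In sorted bulk libraries, fewer cells of a type and less RNA per cell cannot be told apart.

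The 6 loci together took between 0.0771% and 0.565% of the counts of a library. Macs held the highest share in sham, 0.489% to 0.565%, and it was 0.408% to 0.476% at UUO-2, 0.140% to 0.179% at UUO-7 and 0.210% to 0.321% in R-UUO, so that no 2 of these 4 groups overlapped. In ECs the share was 0.192% to 0.221% in sham and 0.107% to 0.148% at UUO-7. PT cells went from 0.186% to 0.195% in sham down to 0.0885% to 0.127% at UUO-7, again without overlap. In PDGFR-β+ cells the sham range of 0.142% to 0.166% overlapped that of UUO-7, 0.121% to 0.144%. These shares are of raw counts, without any scaling between libraries.

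**Figure D1:**
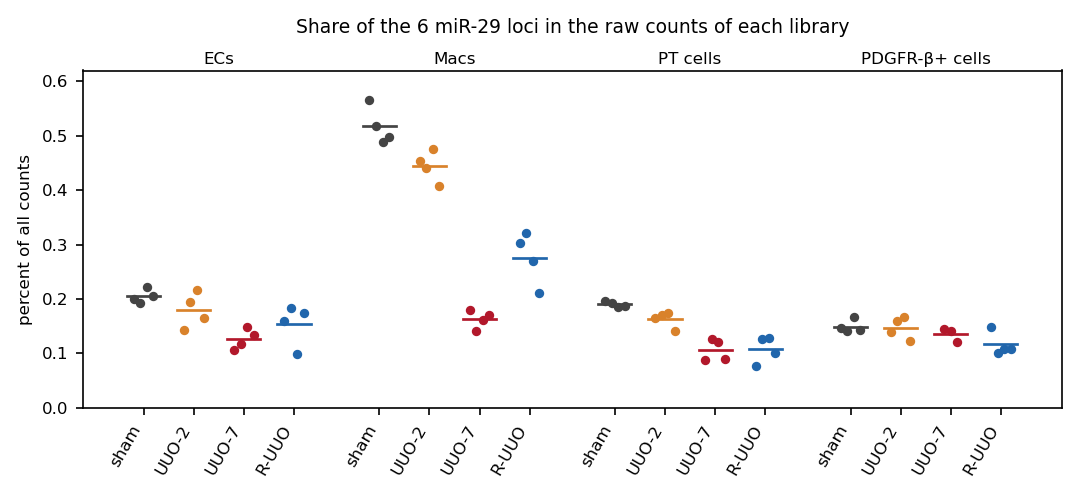
Share of the 6 miR-29 loci in the raw counts of each library, in percent, by cell type and condition; each point is 1 library and each bar the group mean. Macs stand above the other cell types in sham and UUO-2 and drop to 0.140% to 0.179% at UUO-7.

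miR-29a-3p made up most of the family, with 459142 counts over all libraries against 56281 for miR-29c-3p, 7167 and 4846 for the chromosome 1 and chromosome 6 loci of miR-29b-3p, 1136 for miR-29c-5p and 962 for miR-29a-5p. By mean level, miR-29a-3p ranked 39 of 1358 detected loci in Macs, 47 of 1296 in ECs, 53 of 1231 in PT cells and 54 of 1241 in PDGFR-β+ cells. Members were not present in fixed proportion. miR-29c-3p supplied 26.9% to 36.1% of the 3p counts in sham PDGFR-β+ cells and 20.7% to 23.9% in sham PT cells, compared with 9.48% to 11.2% in sham ECs and 5.71% to 7.25% in sham Macs. miR-29b-3p was a minor part everywhere, with a median of 1.16% in ECs and 3.34% in Macs. The chromosome 1 locus was credited with a median of 59.2% of the miR-29b-3p counts.

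In sham kidneys, the level of miR-29a-3p was highest in Macs (3100 ± 207 CPM, SD, n = 4), followed by ECs (2635 ± 350), PDGFR-β+ cells (1417 ± 155) and PT cells (988 ± 57.1). CPM values in the text are after TMM scaling, here over all 63 libraries. Macs and ECs did not differ beyond their spread (log2 difference of ECs against Macs -0.23, SE 0.17, edgeR quasi-likelihood test, adjusted p = 0.25) with TMM scaling, while ECs were called lower with library size in its place (-1.37, adjusted p = 1.67e-10). ECs stood above PDGFR-β+ cells (0.89, SE 0.17, adjusted p = 2.94e-05), and PT cells lay 0.52 under PDGFR-β+ cells on the log2 scale (-0.52, SE 0.17, adjusted p = 0.00881), short of a 1.5-fold change, which it passed with loci of a name summed (-0.67). The order of miR-29c-3p was another. It was highest in PDGFR-β+ cells (652 ± 70.4 CPM), then ECs (304 ± 18.5), PT cells (299 ± 16.3) and Macs (221 ± 27.8). The step from PDGFR-β+ cells to ECs passed the test (-1.10 for ECs against PDGFR-β+ cells, SE 0.21, adjusted p = 1.94e-05), whereas ECs and PT cells (0.02, SE 0.21, adjusted p = 0.93) and PT cells and Macs (-0.44 for Macs against PT cells, SE 0.21, adjusted p = 0.0713) did not separate in edgeR. DESeq2 called the latter pair (-0.68, adjusted p = 0.000996). miR-29b-3p, with its loci summed, was highest in Macs at 104 ± 11.5 CPM, over PDGFR-β+ cells (48.6 ± 10.6), PT cells (47.7 ± 12.9) and ECs (34.2 ± 2.06). Macs exceeded PDGFR-β+ cells at each locus (1.05 and 1.16, adjusted p = 0.00158 and 0.00073), and no pair of the lower 3 was called at either locus in edgeR. DESeq2 called ECs under PT cells on chromosome 1 (-0.64, adjusted p = 0.0478). With library size in place of TMM, ECs were called under PT cells (-1.52 and -1.49) and PT over PDGFR-β+ cells (0.95 and 1.04) at both loci.

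**Figure D2:**
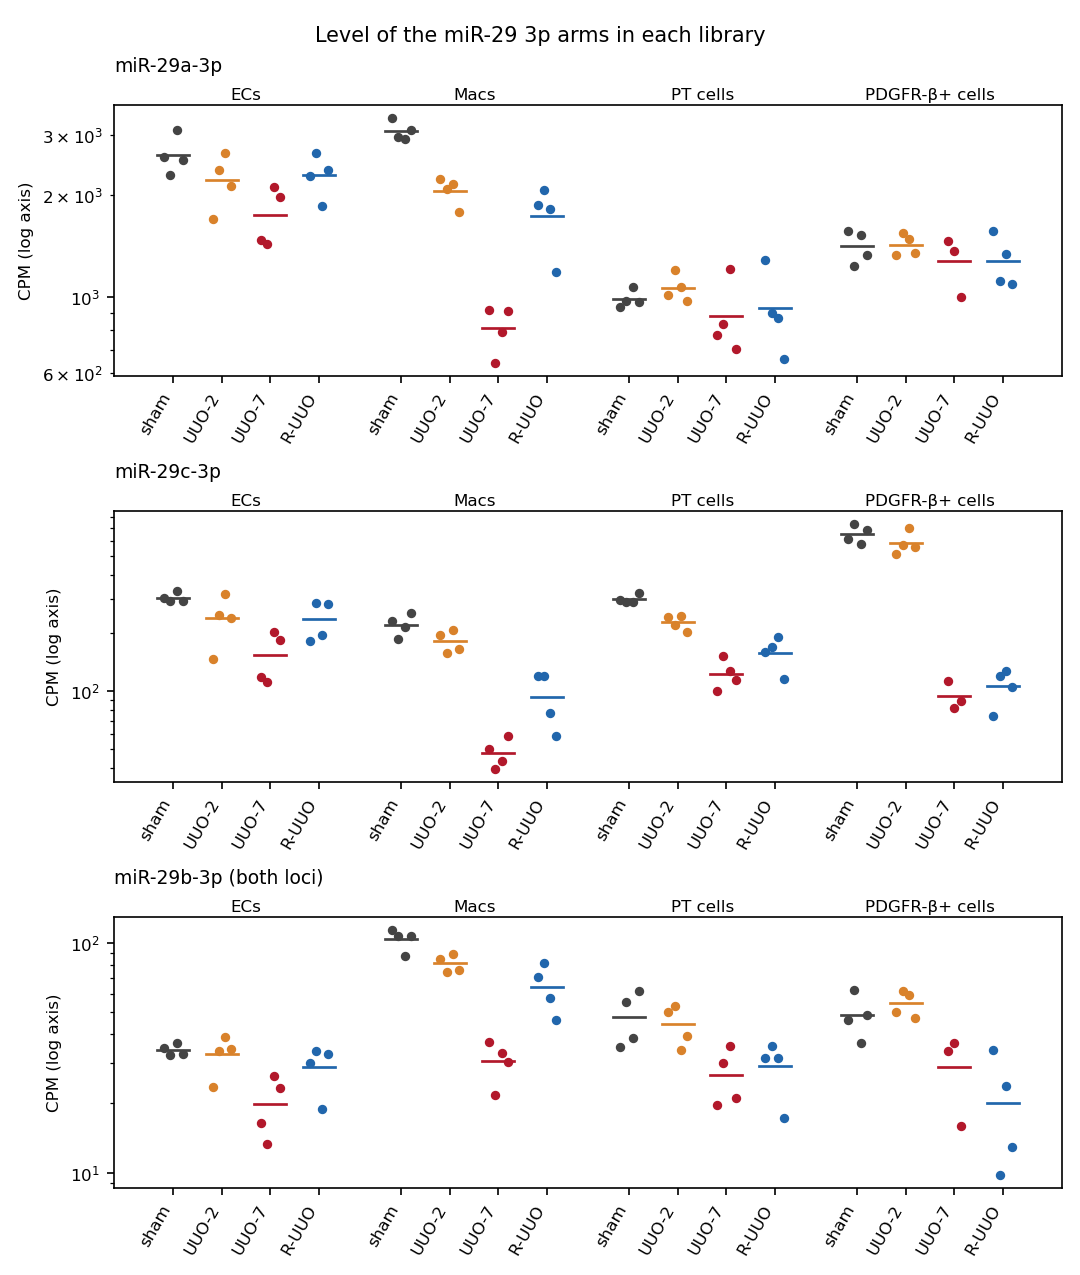
Level of the miR-29 3p arms in each library, in CPM on a log axis, by cell type and condition; points are libraries and bars group means. miR-29a-3p stays near its sham level in PDGFR-β+ cells while miR-29c-3p falls there from 652 CPM in sham to 94.5 at UUO-7, and in Macs all 3 panels drop at UUO-7 and rise again in R-UUO.

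A locus was called changed when its adjusted p was under 0.05 and its fold change above 1.5. In sham, 3 of the 6 loci were called between ECs and Macs, where 56.5% of the 671 tested loci were, 1 between ECs and PT cells (56.9%), 2 between ECs and PDGFR-β+ cells (38.7%), 4 between Macs and PT cells (52.2%), 6 between Macs and PDGFR-β+ cells (61.4%) and 1 between PT and PDGFR-β+ cells (53.7%). Averaged over the 4 conditions the counts were 4 (64.7%), 1 (68.6%), 1 (40.2%), 5 (62.3%), 3 (68.7%) and 0 (63.2%), in the same order of pairs. For the last of these, 2 members had an unadjusted p under 0.05 in edgeR and DESeq2 called 1. Levels between cell types rest on the scaling. TMM factors ran from 1.37 to 2.01 in Macs and from 0.471 to 0.769 in ECs, and with library size in place of TMM the order of ECs and Macs averaged over conditions turned for miR-29a-3p (0.34 became -0.98) and for miR-29c-3p (0.97 became -0.35). Without TMM, miR-29c-3p in sham PDGFR-β+ cells was also no longer set apart from PT cells (-0.11 for PT against PDGFR-β+ cells, adjusted p = 0.727) or Macs (adjusted p = 0.0736).

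Ratios of members within a library do not depend on such scaling, and were compared over mice with an exact sign-flip permutation test (2-sided, 24 comparisons). The log2 ratio of miR-29c-3p to miR-29a-3p was lower in Macs than in PT cells in 16 of 16 mice (mean difference -1.59 ± 0.468, SD; adjusted exact p = 0.000183, from the smallest p that 16 mice allow) and lower in ECs than in PT cells in 16 of 16 (-0.97 ± 0.384, adjusted exact p = 0.000183). ECs exceeded Macs in 15 of 16 mice (0.62 ± 0.37, adjusted exact p = 0.000293). PDGFR-β+ cells varied most: their ratio differed from that of ECs by -0.92 (ECs against PDGFR-β+ cells, SD 1.19, adjusted exact p = 0.0209), a mean over conditions that differed in sign. The 7 of 15 mice in which ECs were the higher were all those of UUO-7 and R-UUO, and ECs were the lower in every sham and UUO-2 mouse. Group means were -3.11 in ECs and -1.12 in PDGFR-β+ cells in sham, and -3.53 and -3.75 at UUO-7. The ratio of miR-29b-3p to miR-29a-3p was lower in ECs than in Macs (-1.52 ± 0.178) and than in PT cells (-1.54 ± 0.398) in 16 of 16 mice each, while Macs and PT cells differed by -0.02 (SD 0.461, n = 16, adjusted exact p = 0.911).

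**Figure D3:**
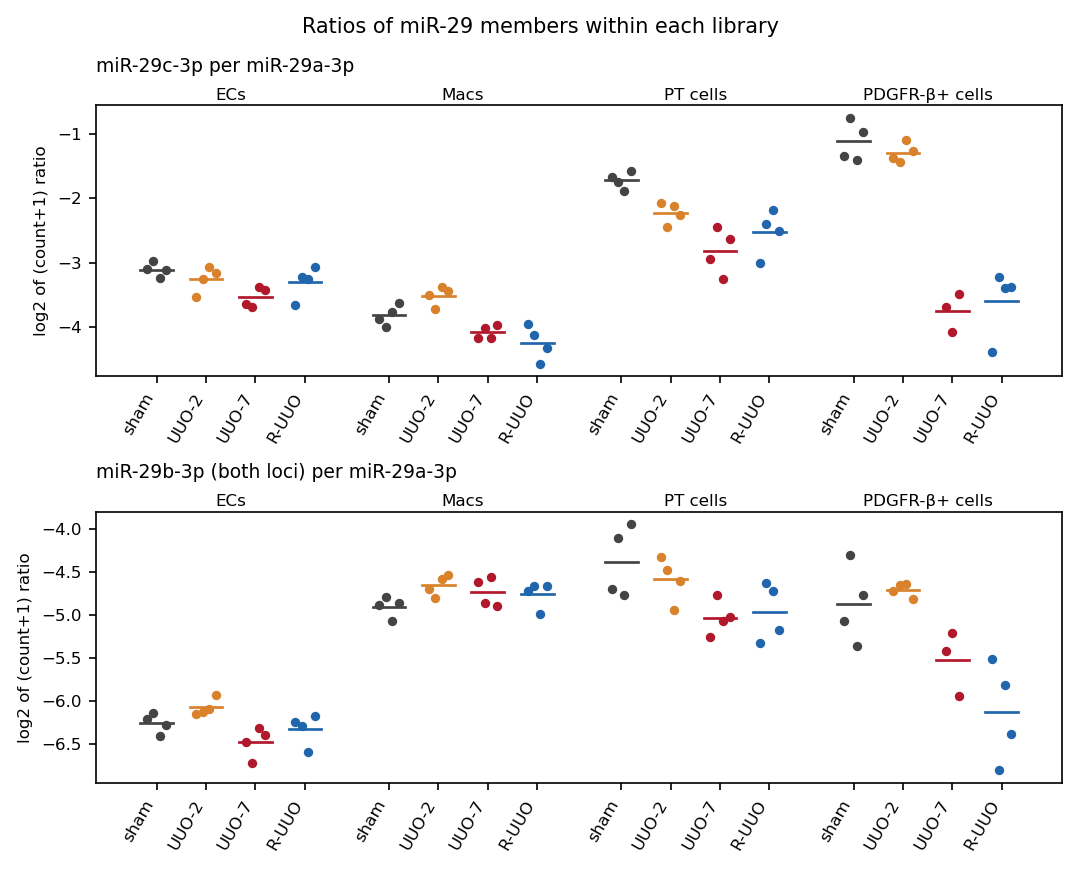
Log2 ratios of miR-29c-3p to miR-29a-3p (top) and of miR-29b-3p, both loci summed, to miR-29a-3p (bottom) within each library, by cell type and condition; 1 count was added to each side, points are libraries and bars group means. In PDGFR-β+ cells the miR-29c-3p ratio moves from a mean of -1.12 in sham to -3.75 at UUO-7, while in Macs it stays between -4.57 and -3.38 throughout.

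miR-29 loci fell with injury, and none was called higher against sham. Of 66 values against sham, 18 were called lower and 0 higher, where over all tested loci in the same comparisons 9.02% were called lower and 17.9% higher. DESeq2 called none higher either, and with library size in place of TMM miR-29c-5p was called higher in Macs at UUO-2 (log2 1.06, adjusted p = 0.0473). At UUO-7 against sham, 5 of 6 loci fell in Macs, where 16.8% of the 457 tested loci were called lower. In PDGFR-β+ cells 2 of 6 fell, against 14.3% of 477, in PT cells 2 of the 4 tested, against 17.6% of 330, and in ECs 2 of 6, against 5.33% of 469. The median log2 fold change of the members was -1.72 in Macs, -0.79 in PDGFR-β+ cells, -0.90 in PT cells and -0.68 in ECs. Over all tested loci it was 0.22, 0.50, 0.0022 and -0.05. The members are not independent of each other, since those of a cluster lie close together and the miR-29b-3p loci share reads.

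At the early time point, UUO-2, no member was called against sham in any cell type, with 27.6% of loci called in either direction in Macs, 19.1% in PT cells, 6.29% in PDGFR-β+ cells and 1.71% in ECs. By unadjusted p under 0.05 in edgeR, 2 members moved in Macs, 1 in PT cells and 0 in ECs and PDGFR-β+ cells, and DESeq2 called 0 in all 4. miR-29a-3p in Macs was the nearest, lower without overlap of the groups (-0.41, SE 0.14, adjusted p = 0.0363) and short of 1.5-fold. Without sham replicate 2, sham replicate 3 or UUO-2 replicate 2 it was called.

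miR-29a-3p, the most abundant member, changed strongly in Macs. Scaled within Macs, its level was 5279, 4641, 4772 and 4582 CPM in sham, 3750.1, 3746, 3724 and 3337 at UUO-2, 1604, 1120.0, 1472 and 1392 at UUO-7, and 3086, 3311, 2819 and 2017 in R-UUO. Each of the 4 groups occupied its own range, sham at the top and UUO-7 at the bottom. It fell 3.45-fold from sham to UUO-7 (log2 -1.79, SE 0.15, adjusted p = 6.78e-08), 2.61-fold from UUO-2 to UUO-7 (-1.38, SE 0.14, adjusted p = 2.15e-06), and then rose 2.01-fold in R-UUO over UUO-7 (1.01, SE 0.14, adjusted p = 0.000169). R-UUO remained under sham (-0.78, SE 0.14, adjusted p = 0.000342). In ECs the levels were 1555, 1479, 1938 and 1583 CPM in sham and 1029.5, 1004, 1366 and 1248 at UUO-7. These groups did not overlap, but the difference stayed under 1.5-fold (-0.50, SE 0.14, adjusted p = 0.0228), which it passed with library size in place of TMM (-0.65). PT cells had 1122, 1126, 1254 and 1156 CPM in sham and 827, 939.9, 1352 and 764 at UUO-7, where replicate 4 lay above every sham library and the others below (-0.26, SE 0.21, adjusted p = 0.308, and -0.63 with adjusted p = 0.0199 with library size in place of TMM). The TMM factor of replicate 4 was 0.781, against 1.12 to 1.28 in sham. By its share of raw counts, miR-29a-3p lay lower in replicate 4 than in every sham library. PDGFR-β+ cells had 1142, 1081, 1156 and 1066 CPM in sham, 1061, 1049 and 802 at UUO-7, and 1272, 807, 935 and 889.7 in R-UUO. A difference between sham and UUO-7 was not detected there (-0.19, SE 0.15, adjusted p = 0.312). Its direction rested on the scaling. TMM factors were 0.791 to 1.03 in sham and 1.23 to 1.36 at UUO-7. By its share of raw counts, miR-29a-3p lay above every sham library in UUO-7 replicates 2 and 4. Replicate 5 lay within the sham range.

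miR-29c-3p fell at UUO-7 in all 4 cell types, most in PDGFR-β+ cells. There it measured 448, 641, 436 and 544 CPM in sham, 443, 454, 569 and 433 at UUO-2, 81.8, 62.4 and 71.4 at UUO-7, and 60.5, 86.3, 89.1 and 85.1 in R-UUO. Sham and UUO-2 shared a range far above that shared by UUO-7 and R-UUO. The fall from sham to UUO-7 was 7.2-fold (-2.85, SE 0.20, adjusted p = 3.68e-08), that from UUO-2 to UUO-7 6.61-fold (-2.72, SE 0.20, adjusted p = 1.9e-07), and R-UUO was still 6.44-fold under sham (-2.69, SE 0.18, adjusted p = 1.46e-08). Between R-UUO and UUO-7 no change was detected (0.16, SE 0.19, adjusted p = 0.706). In Macs miR-29c-3p was 359, 291, 349.7 and 371 CPM in sham, 330.0, 284, 357 and 308 at UUO-2, 88.3, 69.0, 81.1 and 89.0 at UUO-7, and 199, 190.0, 118 and 99.8 in R-UUO. The UUO-7 and R-UUO ranges were each apart from all others. The change was 4.19-fold down at UUO-7 (-2.07, SE 0.20, adjusted p = 3.62e-07), followed by a 1.87-fold rise in R-UUO (0.90, SE 0.20, adjusted p = 0.00307) to a level 2.24-fold under sham (-1.17, SE 0.19, adjusted p = 0.000148).

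In PT cells miR-29c-3p was 353, 334, 338 and 386 CPM in sham, 281, 252, 279 and 225 at UUO-2, 107, 172, 142 and 123 at UUO-7, and 193, 187, 225 and 128 in R-UUO. Sham was the highest group without overlap, and R-UUO overlapped both obstructed groups. It was 2.59-fold lower at UUO-7 than in sham (-1.37, SE 0.18, adjusted p = 4.68e-05) and 1.93-fold lower in R-UUO than in sham (-0.95, SE 0.18, adjusted p = 0.000936). Of the UUO-2 libraries none reached sham, with a change of -0.44 (SE 0.18, adjusted p = 0.0937). In ECs the levels were 181, 188, 205 and 182 CPM in sham, 82.3, 78.2, 131 and 116 at UUO-7, and 129, 171, 136 and 191 in R-UUO. Sham and UUO-7 did not overlap (-0.89, SE 0.20, adjusted p = 0.00876), a 1.85-fold fall that was not called without UUO-7 replicate 2 (adjusted p = 0.0533). The calls of miR-29c-3p against sham in the other 3 cell types were kept whichever library was left out.

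miR-29b-3p, the least abundant 3p arm, fell most clearly in Macs. At the chromosome 1 locus it was 105, 99.8, 86.2 and 91.0 CPM in sham, 37.3, 24.6, 33.4 and 26.9 at UUO-7, and 73.0, 77.1, 51.6 and 36.1 in R-UUO. Sham and UUO-7 were apart, and R-UUO lay between them, overlapping UUO-7 by 1 library. The log2 change at UUO-7 was -1.65 (SE 0.21, adjusted p = 8.75e-06) at this locus and -1.57 (SE 0.21, adjusted p = 1.24e-05) on chromosome 6, with rises of 0.99 and 1.01 in R-UUO over UUO-7 (adjusted p = 0.00261 and 0.00239). In PDGFR-β+ cells the levels of the chromosome 1 locus were 20.5, 33.0, 16.4 and 24.9 CPM in sham, 13.5, 15.6 and 8.49 at UUO-7, and 16.3, 4.17, 11.9 and 7.50 in R-UUO. All UUO-7 and R-UUO libraries lay under the lowest sham library, and the call was made for R-UUO (-1.24, SE 0.36, adjusted p = 0.0109, and on chromosome 6 -1.45, SE 0.44, adjusted p = 0.0147), not for UUO-7 (-0.91, SE 0.39, adjusted p = 0.0642). DESeq2 (-1.14, adjusted p = 0.00863) and a fit of only the 2 groups (-0.97, adjusted p = 0.0251) did call it at UUO-7. In PT cells the chromosome 1 locus went from 22.7, 33.2, 27.1 and 51.5 CPM in sham to 14.2, 20.8, 21.9 and 12.4 at UUO-7, on 21 to 87 counts a library. These did not overlap (-0.94, SE 0.35, adjusted p = 0.0348), but the call was lost without any 1 of UUO-2 replicate 2, sham replicate 4, UUO-7 replicate 2 or UUO-7 replicate 5 and with the replicate number as a block (adjusted p = 0.0873). In ECs the chromosome 6 locus was called lower at UUO-7 (-0.65, SE 0.20, adjusted p = 0.0421) and the chromosome 1 locus was not (-0.70, SE 0.25, adjusted p = 0.075), although DESeq2 called it (-0.66, adjusted p = 0.0385). The chromosome 6 call was lost in 15 of the 16 fits that left out 1 library.

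The 5p arms were near the limit of detection. They made up at most 0.643% of the miR-29a counts and at most 5.71% of the miR-29c counts of a library, and in PT cells both fell under the filter on low counts. miR-29a-5p in Macs was 8.46, 9.37, 13.5 and 9.07 CPM in sham, 1.64, 4.01, 0.983 and 2.21 at UUO-7, on 3, 14, 2 and 6 counts, and 7.92, 8.05, 10.8 and 10.5 in R-UUO. UUO-7 lay under both other groups, with changes of -2.08 (SE 0.37, adjusted p = 0.000147) against sham and of 1.95 (SE 0.37, adjusted p = 0.00128) in R-UUO over UUO-7. miR-29c-5p in Macs did not follow its own 3p arm. It was 3.04, 1.41, 5.85 and 5.19 CPM in sham and 4.93, 3.15, 4.92 and 5.15 at UUO-7, with the groups overlapping (0.19, SE 0.44, adjusted p = 0.725). In PDGFR-β+ cells miR-29c-5p was 7.01, 12.1, 0 and 8.40 CPM in sham and 0.938, 0.22 and 1.54 at UUO-7, the latter on 5, 1 and 4 counts. Sham replicate 3 had 0 counts of both 5p arms, which allows up to 1.1 CPM of its raw total at 3 counts. The other 3 sham libraries lay above every UUO-7 library. The fall was called (-2.99, SE 0.95, adjusted p = 0.0145) and lost without UUO-7 replicate 4 (adjusted p = 0.0636).

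**Figure D4:**
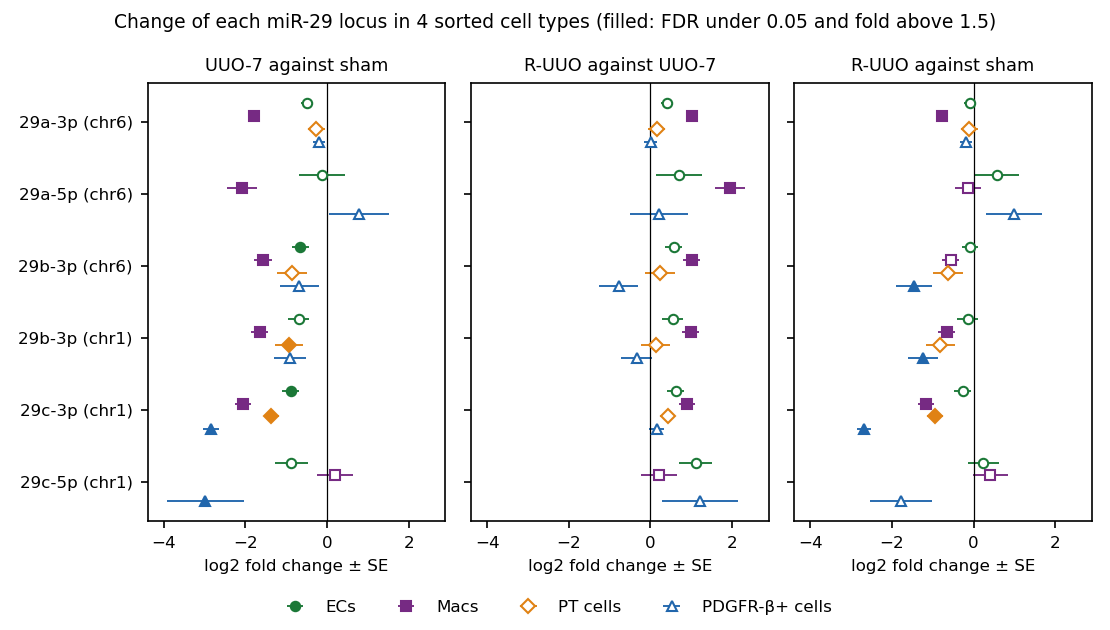
Log2 fold change (± SE) of each miR-29 locus in 4 sorted cell types, for UUO-7 against sham, R-UUO against UUO-7 and R-UUO against sham; filled symbols have an adjusted p under 0.05 and a fold change above 1.5. Macs carry 5 filled symbols to the left at UUO-7 and 5 to the right in the middle panel, and miR-29c-3p of PDGFR-β+ cells is at -2.85 and -2.69 in the outer panels.

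Between UUO-2 and UUO-7, which use the same UUO-7 libraries as the comparison with sham, 5 of 6 loci fell in Macs (14.4% of loci were called lower), 3 of 6 in PDGFR-β+ cells (10.3%) and 1 of 4 in PT cells (1.52%). In ECs 0 of 6 were called in edgeR, where 0.426% of loci were called lower, although 5 had an unadjusted p under 0.05 and DESeq2 called 2. Of the PDGFR-β+ calls, that of miR-29b-3p on chromosome 1 (-1.04, SE 0.39, adjusted p = 0.0492) was lost in 11 of 15 fits that left out a library and with the replicate number as a block (adjusted p = 0.155). That of miR-29c-5p (-3.11, SE 0.95, adjusted p = 0.0177) was lost without UUO-7 replicate 2 or 4.

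After reversal of the obstruction, members rose again in Macs. In R-UUO against UUO-7, 5 of 6 loci rose there, where 12.7% of tested loci were called higher, and miR-29c-5p did not pass (0.21, SE 0.44, adjusted p = 0.737). No member was called in ECs (0.853% of loci higher), PT cells (0.606%) or PDGFR-β+ cells (3.14%). In ECs all 6 values were above 0, from 0.40 to 1.12, 5 with an unadjusted p under 0.05 in edgeR. PT cells had 1 such member and PDGFR-β+ cells 0, and DESeq2 called 0 in each of the 3. Against sham, R-UUO had 3 of 6 loci lower in Macs (10.5% of loci), 3 of 6 in PDGFR-β+ cells (13.8%), 1 of 4 in PT cells (13%) and 0 of 6 in ECs (5.12%). For ECs none had an unadjusted p under 0.05 in edgeR, and DESeq2 called 0.

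Whether these changes differed between cell types was tested as the change in a cell type minus the mean change in the other 3. That mean includes Macs, where miR-29a-3p fell most, or PDGFR-β+ cells, where miR-29c-3p did. A smaller fall than the mean is therefore not a smaller fall than in each of the others. For UUO-7 against sham, 4 of 6 loci fell further in Macs, with 13.1% of the 671 loci called in that direction. The 2 of miR-29b-3p among them were not called by DESeq2, with library size in place of TMM or without a filter, and miR-29c-5p was called as higher in Macs by DESeq2 (1.93, adjusted p = 0.00681) and with library size (1.85, adjusted p = 0.0294). miR-29a-3p had the clearest difference (-1.63, SE 0.20, adjusted p = 5.91e-09), while miR-29c-3p in Macs did not differ detectably from the mean of the others (-0.52, SE 0.24, adjusted p = 0.124). In PDGFR-β+ cells, 2 loci fell further (8.79% of loci) and 2 fell less or rose (14%). miR-29c-3p was the member that fell further (-1.30, SE 0.26, adjusted p = 7.94e-05) together with miR-29c-5p (-2.43, SE 0.74, adjusted p = 0.00996). The change of miR-29a-3p lay above the mean of the others (0.75, SE 0.21, adjusted p = 0.00538). This call was lost with loci summed (adjusted p = 0.137) and without a filter (adjusted p = 0.0507). The fall of miR-29c-3p was smaller in ECs than in the others (1.11, SE 0.24, adjusted p = 0.000766), the only member called there, where 0.894% of loci were higher. PT cells had 2 loci with a smaller fall than the mean of the other 3 (15.4% of loci). These were miR-29a-3p (0.72, SE 0.20, adjusted p = 0.00467) and miR-29c-3p (0.71, SE 0.24, adjusted p = 0.0228). Neither was called by DESeq2 or with library size in place of TMM. Within PT cells, miR-29c-3p fell more than within ECs. For R-UUO against UUO-7 the rise of miR-29a-3p was greater in Macs (0.94, SE 0.20, adjusted p = 0.00463), 1 of 6 called where 0.894% of loci were higher, and this was lost in 26 of 63 fits that left out a library. In the other 3 cell types edgeR called none for this contrast, where 0.149% of loci were called in ECs, 0.149% in PDGFR-β+ cells and 0.596% in PT cells. An unadjusted p under 0.05 was seen for 0 members in ECs, for 3 in PDGFR-β+ cells (1 of them called by DESeq2) and for 1 in PT cells. The miR-29b-3p differences in Macs at UUO-7 were lost in 34 and 33 of 63. For UUO-2 against sham no difference was called in any cell type by edgeR (where 8.79% of loci were called in Macs, 0.149% in ECs, 6.41% in PDGFR-β+ cells and 11.6% in PT cells) or by DESeq2, and 1 member, in Macs, had an unadjusted p under 0.05.

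Within a library, the ratio of miR-29c-3p to miR-29a-3p carried the same contrast without scaling. In PDGFR-β+ cells miR-29c-3p counts were 39.2%, 59.3%, 37.8% and 51.0% of those of miR-29a-3p in sham, and 7.72%, 5.96% and 8.95% at UUO-7. In PT cells they were 31.5%, 29.7%, 27.0% and 33.5% in sham, and 13.0%, 18.4%, 10.5% and 16.2% at UUO-7. In Macs, 6.81%, 6.29%, 7.33% and 8.09% became 5.53%, 6.19%, 5.54% and 6.42%. Thus sham and UUO-7 did not overlap in PDGFR-β+ cells (log2 -2.63), in PT cells (-1.10) or in ECs (-0.42), and they overlapped in Macs (-0.26). By an exact permutation test (2-sided), each of the first 3 had p = 0.0286, the smallest that these group sizes allow, and 0.196 after adjustment over 48 comparisons, so that none passed the threshold. With this smallest p, a pass would need many of the 48 comparisons to reach it. The ratio of miR-29c-3p to miR-29c-5p fell in Macs at UUO-7 by 2.43 on the log2 scale with no overlap (adjusted exact p = 0.196).

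Other miRNAs reported to act in kidney fibrosis were counted in the same fits. Of the profibrotic names (miR-21a, miR-214, miR-199a, miR-34a and miR-132 arms), 6 of 8 tested loci rose in Macs at UUO-7 and 9 of 10 in PDGFR-β+ cells, where 26.3% and 34% of all loci were called higher. The 8 names had 10 loci in the count table, so a name could be counted at more than 1 locus. Arms of miR-199a and miR-214 were also among the PDGFR-β+ markers above. These loci are therefore not independent of each other. As an example chosen after its values were seen, miR-214-3p rose by 3.82 on the log2 scale in Macs (SE 0.27, adjusted p = 1.18e-08) and by 3.06 in PDGFR-β+ cells (SE 0.16, adjusted p = 5.91e-10). In PT cells 4 of 6 rose (25.5% of loci) and in ECs 3 of 8 (6.18%). The antifibrotic names beside miR-29 were members of the miR-30 and miR-200 families and miR-26a. Among them, miR-200a, miR-200b, miR-200c and miR-141 were also the markers of other epithelium above. Of the 11 names, 13 loci were tested in each cell type. In Macs 6 fell (16.8% of all loci did) and 1 rose, in PDGFR-β+ cells 3 fell (14.3%) and 0 rose, in PT cells 3 fell (17.6%) and 3 rose, and in ECs 1 fell (5.33%) and 0 rose. miR-30a-5p, chosen in the same way, was among those that fell, by 1.28 in Macs (SE 0.12, adjusted p = 3.62e-07) and by 0.88 in PDGFR-β+ cells (SE 0.13, adjusted p = 6.26e-05). The median log2 fold change of the 13 was -0.45 in Macs and -0.41 in PDGFR-β+ cells, against -1.72 and -0.79 for the miR-29 loci.

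Over the 63 libraries, the loci whose log2 CPM followed miR-29a-3p most closely were miR-26b-5p (Pearson r = 0.845), miR-7235-3p (0.762) and miR-27a-3p (0.743), of 671 loci. Those nearest to miR-29c-3p were miR-101a-3p (0.807), miR-193a-3p (0.654) and let-7c-2-3p (0.611). The 2 loci of miR-29b-3p had r = 0.895 with each other. Their reads cannot be told apart, so this value does not show that the loci vary together. miR-29a-3p and miR-29c-3p had r = 0.348. These correlations describe libraries that share cell type, mouse and scaling, and miR-7235-3p rested on a mean of 3.76 CPM or less.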

How the data were processed

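The authors trimmed reads with Trim Galore 0.4.1 and cutadapt 1.1, checked them with FastQC, and aligned them with Bowtie through ShortStack to GRCm38 and miRBase 22, per the submitters' processing notes and the study's methods. They deposited raw counts per genomic locus of each mature miRNA, 1 column per library, after removing 1 library. How reads matching several loci or with a mismatch were placed, and whether strand was used, is not given in the sources used here. A column summed over all libraries was not used.

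Groups were taken from the labels. The counts were analyzed in R 4.3.3 with edgeR 4.0.16 (filterByExpr with a minimum count of 10, TMM factors, quasi-likelihood test), within each cell type for changes with injury and over all libraries for cell types and differences of a change, with Benjamini-Hochberg adjustment over all loci tested. The SE was computed as the absolute log2 fold change over the square root of F, and log2 CPM used a prior count of 2. In data simulated with changes of log2 2 between sham and UUO-7, 97.1% to 100% of the changed loci were recovered within a cell type and 94.5% for the difference of this change in Macs, none with the wrong sign. Within a cell type, 3 to 6 unchanged loci were called. All loci were given the same dispersion, and most changes of members were smaller, so these rates do not give the power for uncalled members. Ratios within a library were taken after adding 1 count and tested by exact permutation (Python 3.11.15, SciPy 1.17.1, pandas 2.3.3, matplotlib 3.10.9). Counts of 3 were taken as the floor for a count of 0, and intervals of this kind cover counting error only. Precision follows depth, which differed by cell type.

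Libraries of different cell types with the same number in a condition came from the same mouse, and the mouse was a block in the ratio tests between cell types. Deviations from the group means correlated little between them (median r 0.0485 over 93 pairs, from -0.295 to 0.267). Replicate pairs differed by at least 8.957 chi-square units per degree of freedom, so no library was counted as a duplicate. Alternatives were DESeq2 1.42.0, library size in place of TMM, no filter, loci of a name summed, only the 2 groups compared, a replicate block, the adjusted p alone, a pseudocount of 0.5, and each library (for ratios between cell types, each replicate number) left out. The replicate block was the mouse in the fits over all cell types and the replicate number within a cell type. The named loci were all members, the 3 loci nearest to miR-29a-3p and to miR-29c-3p in pattern, and 2 lists of fibrosis miRNAs, whose other loci were only counted. Members and lists were chosen with earlier results of these data known.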

Additional observations from a re-analysis of the deposited data

Results flagged for a closer look

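In 7 of the 90 sets of 4 libraries, a library stood apart from the other 3 by Dixon's criterion, which chance meets in about 1 in 20 sets. In ECs after reversal, replicate 4 was lowest for miR-29a-3p (1305 CPM, the others 1594 to 1620.4) and for miR-29b-3p on chromosome 1 (6.42 CPM, on 17 counts, the others 12.4 to 13.3). It was the shallowest of the EC R-UUO libraries, with a total of 3934970 counts. For miR-29a-3p in Macs at UUO-2, replicate 4 was lowest at 3337 CPM (the others 3724 to 3750.1), still above every R-UUO library. For miR-29c-3p in PDGFR-β+ cells, R-UUO replicate 1 was lowest at 60.5 CPM (85.1 to 89.1) and UUO-2 replicate 3 highest at 569 CPM (433 to 454). The remaining 2 rest on few counts: miR-29a-5p in EC sham replicate 4 at 0.473 CPM (4 counts, the others 2.48 to 2.81) and miR-29c-5p in Macs, UUO-7 replicate 3, at 3.15 CPM (11 counts, the others 4.92 to 5.15).

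Of the changes compared between cell types, 12 differed by the edgeR test. For UUO-7 against sham relative to the mean of the other cell types, Macs differed for miR-29a-3p (-1.63), miR-29a-5p (-2.10), and miR-29b-3p on chromosome 1 (-0.98) and chromosome 6 (-1.01). PDGFR-β+ cells differed for miR-29c-3p (-1.30), miR-29c-5p (-2.43), miR-29a-3p (0.75) and miR-29a-5p (2.00). PT cells differed for miR-29a-3p (0.72) and miR-29c-3p (0.71), and ECs for miR-29c-3p (1.11). For R-UUO against UUO-7, miR-29a-3p differed in Macs (0.94). The adjusted p of the miR-29a-5p differences was 0.0181 in Macs, lost in 5 of 63 fits that left out a library, and 0.0287 in PDGFR-β+ cells, lost in 16 of 63. The miR-29a-3p difference in PDGFR-β+ cells was lost in 9 of 63, and that in PT cells without UUO-7 replicate 4 (adjusted p = 0.0514), the library with 1352 CPM.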

How the results depend on the processing

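Depth limits the 5p arms in every cell type and all members but miR-29a-3p and miR-29c-3p in PT cells. Levels between cell types depend on TMM, within-library ratios do not. Of 1775 single values under the other settings, 1597 kept direction and call, 64 that were called in neither setting changed sign, 47 lost a call, 60 gained a call and 7 reversed. With 1 library left out, these counts were 13275, 228, 234, 89 and 0 of 13826, and for the ratios between cell types, with a replicate number left out, 95, 6, 17, 2 and 0 of 120.

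All reversals came with library size in place of TMM, between cell types. For ECs against Macs these were miR-29c-3p in sham (-0.67) and, averaged over conditions, miR-29c-5p (-0.61), miR-29c-3p (-0.35) and miR-29a-3p (-0.98). The others were miR-29c-3p for ECs against PT cells in sham (-1.02), miR-29c-5p for Macs against PDGFR-β+ cells averaged over conditions (0.71), and miR-29b-3p on chromosome 1 for PT against PDGFR-β+ cells in sham (0.95).

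Calls of change with injury in ECs, 2 in the 5 comparisons, were 5 with DESeq2 and 1 each with loci summed, without a filter, with only the 2 groups compared and with the replicate block. Those in PT cells, 4, were 8 with library size only. Differences of a change in Macs, 5, were 3 without a filter. In PDGFR-β+ cells, 4 became 2 with loci summed and 2 without a filter. In PT cells, 2 became 0 with DESeq2, 0 with library size only and 1 without a filter. Ratios of miR-29a-3p to miR-29a-5p past the threshold between cell types, 2, were 1 with a pseudocount of 0.5, and those of miR-29c-3p to miR-29c-5p, 3, were 1 without pairing by mouse. The causes were not tested.

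With 1 library left out, calls with injury ran from 0 to 3 in ECs, 19 to 20 in Macs (18 with all), 5 to 11 in PDGFR-β+ cells (8) and 3 to 5 in PT cells. Differences of a change ran from 1 to 1 in ECs, 1 to 6 in Macs, 1 to 6 in PDGFR-β+ cells and 1 to 2 in PT cells. Pairs of cell types ran from 12 to 15 averaged over conditions (14 with all) and 15 to 18 in sham (17). Ratios past the threshold with injury ran from 0 to 0, which says little, as the smallest p of these group sizes leaves hardly any room to pass. For ratios between cell types, all mice of 1 replicate number were left out at a time, and those past the threshold ran from 1 to 2 for the miR-29a arms, 0 to 2 for the miR-29c arms, 4 to 5 for miR-29b-3p to miR-29a-3p and 4 to 5 for miR-29c-3p to miR-29a-3p.

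In the fits over all cell types the block was the mouse, a pairing that the main edgeR fits did not use. With it, the sham calls of miR-29c-5p were lost for ECs against Macs (1.23, adjusted p = 0.0536) and Macs against PT cells (-1.35, adjusted p = 0.0574). The difference of miR-29a-5p in PDGFR-β+ cells was lost too (adjusted p = 0.0641). The mouse block added a difference of miR-29b-3p on chromosome 6 in PDGFR-β+ cells for R-UUO against UUO-7 (-1.34, adjusted p = 0.0433). Within a cell type the block was the replicate number, and 3 miR-29b-3p calls with injury were lost (ECs on chromosome 6, adjusted p = 0.0928, PT and PDGFR-β+ cells on chromosome 1). Neither block changed another call of the edgeR tests. Numbers are shared between conditions by different mice (median r -0.0175 over 74 pairs of the same number and cell type).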
